A study of Mus musculus with 12 samples.

Results

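The cytosolic ribosomal protein (RP) genes encode the proteins of the ribosome that translates mRNA in the cytoplasm. They were taken here as the protein-coding genes whose name starts with Rpl or Rps followed by a digit, together with Rplp0, Rplp1, Rplp2 and Rpsa. Names starting with Rps6k, which are kinases, and names containing bp were left out. The rule found 92 of the 41457 genes in the files, and it used names only, no measured value. They are 43 genes of the large subunit, 31 genes of the small subunit, 3 genes of the ribosomal stalk, 8 paralogs of core genes (Rpl22l1, Rps27l, Rps27rt, Rpl36al, Rpl7l1, Rpl3l, Rpl10l and Rpl39l) and 7 genes that are annotated as protein-coding but carry a pseudogene name such as Rps12-ps3. Fau, which encodes a ribosomal protein fused to a ubiquitin-like protein, has another name and lies outside the rule.

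The RNA came from splenic regulatory T cells (Treg), sorted as RFP+CD4+ cells. The controls were CD18wt/wt Foxp3Cre littermates (CD18wt). In CD18Foxp3 mice (CD18fl/fl Foxp3Cre), Cre is made under the Foxp3 gene. It removes exon 3 of Itgb2, the gene of the β2-integrin chain CD18, in Foxp3-expressing cells only. Both genotypes carry Foxp3Cre, and the RFP reporter marks cells in which Cre has been active, so that the cells were chosen by Foxp3 history in both. Mice were matched for age and sex, and the sources used here give no age. Cells of both genotypes were kept overnight in 5 U/mL IL-2, either alone (unstimulated) or together with agonistic antibodies to CD3 (1 μg/mL) and CD28 (2 μg/mL; stimulated). Each of the 4 groups held 3 libraries of poly(A) RNA, 12 in all.

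As background, the small subunit of the ribosome decodes the mRNA and the large subunit joins the amino acids. The stalk proteins recruit the GTPases that drive elongation. mRNAs of RP genes are among the most abundant of a cell and in vertebrates typically begin with a C and a run of pyrimidines, the terminal oligopyrimidine (TOP) motif. Through this motif the kinase complex mTORC1 and the protein LARP1 set how strongly these mRNAs are translated and how stable they are. Triggering the T cell receptor and CD28 makes a resting T cell grow and raise its protein synthesis, which draws on ribosomes that already exist and on new ones. RP genes also have many processed pseudogenes and near-identical copies, so that short reads from them can fit several places in the genome.

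The start regions are shown because they hold the sequence that RP mRNAs are known for. RefSeq (GRCm38.p6) gave promoter windows for 65 of the 92 genes, with 77 start sites. At 14 of the 77 starts (18.2%) the first base was a C followed by a run in which at least 5 bases in all were C or T, against 823 of 32851 starts (2.51%) over all genes. A run of at least 8 C or T bases lay over 17 RP starts (22.1%, against 3.86% of all starts). The letters CCGGAAG, read on both strands from 250 bases before to 50 bases after the start, were found at 27 RP starts (35.1%, against 8.86%), and CACGTG at 8 (10.4%, against 7.15%). In the windows below, 15 bases before and 15 bases from the start base on, the capitals mark the run of C and T over the annotated start. The windows are Rps27 (chr3:90213634-90213663, minus strand), Rps15a (chr7:118116133-118116162, minus strand), Rps6 (chr4:86857353-86857382, minus strand), Rplp2 (chr7:141447636-141447665, plus strand), Rps27l (chr9:66946071-66946100, plus strand) and Rpl7l1 (chr17:46782642-46782671, minus strand).
Rps27: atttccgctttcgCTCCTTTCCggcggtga
Rps15a: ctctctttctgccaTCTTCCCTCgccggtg
Rps6: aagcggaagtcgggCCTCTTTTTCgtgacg
Rplp2: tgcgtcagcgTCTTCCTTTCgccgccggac
Rps27l: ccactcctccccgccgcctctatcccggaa
Rpl7l1: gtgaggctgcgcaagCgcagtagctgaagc
The first 4 had a run of at least 9 bases over the start. The window of Rps27l had none, and that of Rpl7l1 a single C. Rps27l has a further RefSeq start, which also had no such run. The windows are examples and do not divide falling from rising genes. Rpsa and Rps4x also fell on stimulation, and neither had a run over its annotated start. Annotated starts can lie some bases from the base at which transcription begins, so that the absence of a run says only that these letters are not over the annotated start.

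The coding sequences of the Rps27 family are shown because the largest fall and the largest rise with stimulation lay among its members, and because they decide which reads can be told apart. Rps27 (chr3:90212725-90213615, minus strand), Rps27rt (chr9:114982453-114982707, minus strand) and Rps27l (chr9:66946175-66949357, plus strand, all GRCm38) have coding sequences of the same length. That of Rps27rt was the same as that of Rps27 at every base. That of Rps27l differed from Rps27 at 61 bases (capitals) and was 76.1% identical.
Rps27: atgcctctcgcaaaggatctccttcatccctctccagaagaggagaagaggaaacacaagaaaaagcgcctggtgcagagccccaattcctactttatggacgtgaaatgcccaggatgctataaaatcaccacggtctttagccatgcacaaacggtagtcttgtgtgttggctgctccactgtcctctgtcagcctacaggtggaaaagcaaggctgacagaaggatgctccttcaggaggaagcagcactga
Rps27l: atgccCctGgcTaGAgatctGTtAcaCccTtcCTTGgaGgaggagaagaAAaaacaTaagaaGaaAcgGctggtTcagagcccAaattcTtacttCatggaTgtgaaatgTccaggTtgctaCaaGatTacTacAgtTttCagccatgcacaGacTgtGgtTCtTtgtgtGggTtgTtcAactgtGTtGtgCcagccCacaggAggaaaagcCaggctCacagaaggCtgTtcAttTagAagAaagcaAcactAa
All 197 words of 59 bases, the length of the reads, in the coding sequence of Rps27rt were also words of Rps27, and none of the 197 of Rps27l was. A read within the coding sequence therefore separates Rps27l from Rps27 but cannot separate Rps27 from Rps27rt.

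The libraries held between 10665174 and 19005482 exon reads. Itgb2 was lower in CD18Foxp3 Treg in both cultures (229 to 257 TPM against 387 to 465 unstimulated, 131 to 202 TPM against 329 to 331 stimulated, where TPM is a level per transcript length, scaled to the same total in each library). Its log2 fold change was -0.85 (SE 0.09, edgeR adjusted p = 0.00408) unstimulated and -0.94 (SE 0.17, edgeR adjusted p = 0.216) stimulated. All 7 Treg markers checked (Foxp3, Il2ra, Ctla4, Ikzf2, Tnfrsf18, Cd4 and Cd3e) were detected in every group, and markers of other cells ranged from no read (Ncr1) and group means under 1 TPM (Ms4a1, Csf1r and Cd8a) to clear levels in unstimulated CD18wt Treg (means of 26.4 TPM for Cd79b, 8.35 TPM for Lyz2 and 147 TPM for Cst3). The library of CD18wt unstimulated replicate 3 stood apart from the other 11: it had the fewest reads, the highest RP share and the fewest intron reads per exon read of all genes (31.4 per 1000, against 35.2 to 60.0). Of the 87 RP genes tested, 68 were higher in TPM in it than in both other libraries of its group and 16 lower. Results that rest on this library are given with and without it. CD18Foxp3 stimulated replicate 1 also differed from both other libraries of its group. Its mitochondrial share of exon reads was 3.30%, against 2.05 and 2.09%. Its Itgb2 was at 131 TPM, against 202 and 183 TPM, and its Foxp3 at 146 TPM, against 206 and 207 TPM. The labels call the replicates biological, and the study's figure legend on these libraries describes its points as single mice. The unstimulated and stimulated cultures of a genotype may come from the same mice, since the deposited tables carry the same number in both, but no source used here says so, and the tests treated them as separate.

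RP transcripts made up a large part of the measured RNA. Among the 100 genes with the highest mean TPM over the 12 libraries, 56 were RP genes. Of the 92, 69 had a mean of 1000 TPM or more, and 8 had a mean under 10 TPM. The highest were the stalk gene Rplp1 (12715 TPM, mean over 12 libraries), Rps3a1 (8644 TPM), Rps15 (7557 TPM), Rps12-ps3 (6653 TPM) and the stalk gene Rplp0 (6596 TPM). The lowest with enough reads to be tested were Rpl39l (3.74 TPM), Rpl9-ps6 (5.38 TPM), Rpl13a-ps1 (6.25 TPM), Rps12 (42.4 TPM) and Rpl7l1 (139 TPM). That Rps12 stands among the lowest and Rps12-ps3 among the highest is taken up with the near-identical genes below. Rpl10l, Rpl3l, Rpl9-ps1, Rpl36-ps4 and Rpl36a-ps1 had too few reads to be tested. The paralog Rpl3l held 7 reads in 1 library and none in the other 11, and Rpl10l held 0 to 4 reads in each.

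The summed RP level was lower in stimulated than in unstimulated cells of both genotypes. RP genes took 23.2, 23.9 and 28.8% of all TPM in the unstimulated CD18wt libraries and 17.3, 18.7 and 18.1% in the stimulated ones. In CD18Foxp3 Treg they took 24.5, 25.5 and 24.1% unstimulated and 18.4, 17.8 and 17.9% stimulated. All 6 stimulated libraries thus lay below all 6 unstimulated ones, and the genotypes overlapped in the unstimulated and in the stimulated culture. The means were 25.3 ± 3.08% and 18.0 ± 0.72% in CD18wt Treg and 24.7 ± 0.73% and 18.1 ± 0.33% in CD18Foxp3 Treg (SD, n = 3). Without replicate 3, the unstimulated CD18wt mean was 23.5% (n = 2). As a share of exon reads rather than of TPM, RP genes took 13.5 to 17.2% unstimulated and 8.86 to 10.0% stimulated in CD18wt Treg, and 14.0 to 15.1% and 9.05 to 9.62% in CD18Foxp3 Treg. These are shares of the RNA in a library of sorted cells, so that fewer cells of a type and less RNA per cell cannot be told apart, nor can less RP RNA and more RNA of other genes. The balance between the subunits moved as well: the ratio of summed small-subunit to summed large-subunit TPM was 0.93 to 0.96 in the 6 unstimulated libraries and 0.79 to 0.83 in the 6 stimulated ones. These sums leave out the paralogs and the genes with a pseudogene name, such as Rps12-ps3. The latter took 0.77 to 1.34% of TPM unstimulated and 0.77 to 0.96% stimulated. How far the ratio depends on leaving them out was not tested.

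**Figure D1:**
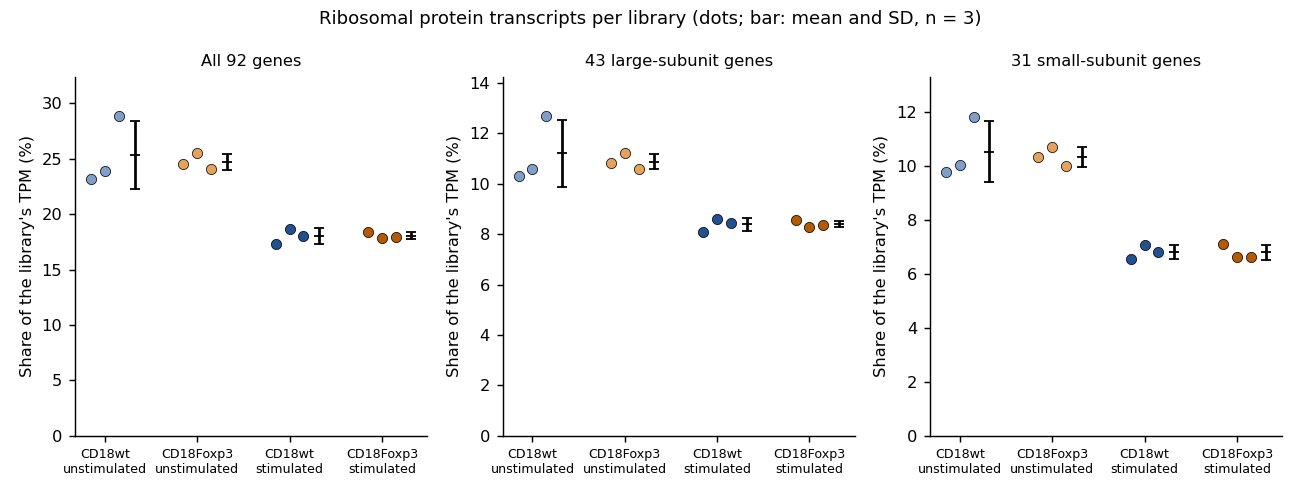
Share of each library's summed TPM (vertical axis, percent) taken by all 92 RP genes, by the 43 large-subunit genes and by the 31 small-subunit genes, in the 4 groups on the horizontal axis; dots are libraries and bars are the mean and SD (n = 3). All stimulated libraries lie below all unstimulated ones, and the highest dot is CD18wt unstimulated replicate 3, at 28.8% for all RP genes.

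Gene by gene, the fall was broad. In CD18wt Treg, 57 of the 87 RP genes tested were lower in stimulated cells past a fold change of 1.5 and an edgeR adjusted p of 0.01, where 14.9% of all 11930 genes tested were lower by the same rule, and 2 were higher, where 18.7% of all genes were. In CD18Foxp3 Treg, 56 of 87 were lower, beside 17.6% of 12019 genes, and 2 were higher, beside 20.9%. At an adjusted p of 0.05 with no minimum fold change, 72 RP genes were lower and 2 higher in CD18wt Treg (22.8% and 26.5% of all genes) and 70 were lower and 3 higher in CD18Foxp3 Treg (26.8% and 29.7%). In TPM, all 3 stimulated libraries lay below all 3 unstimulated ones for 59 RP genes in CD18wt and 58 in CD18Foxp3 Treg, beside 14.2% and 19.2% of all genes tested. They lay above all 3 unstimulated ones for 4 RP genes in CD18wt and 10 in CD18Foxp3 Treg. The share of all genes was not counted in that direction. The median log2 fold change of the RP genes was -0.91 in CD18wt and -0.78 in CD18Foxp3 Treg, while that of all genes tested was 0.02 and 0.01. The RP genes were also less scattered than the genes as a whole, with an SD of the log2 fold change of 0.58 in both genotypes against 1.24 and 1.28 over all genes. Most genes tested have a far lower level than most RP genes, and no set of matched level was compared. Without CD18wt unstimulated replicate 3, the median in CD18wt Treg was -0.71 and 53 RP genes were lower. Without CD18Foxp3 stimulated replicate 1, the median in CD18Foxp3 Treg was -0.85 and 62 RP genes were lower.

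The scale matters for the size of the fall. On log2(TPM + 1) the median of all genes tested was 0.36 in CD18wt and 0.31 in CD18Foxp3 Treg and that of the RP genes -0.49 and -0.42. Relative to all genes the RP median was -0.85 and -0.73 on that scale and -0.93 and -0.80 on the normalised counts. With limma on log2(TPM + 1), 29 and 31 RP genes were lower and 2 and 3 higher. None of the RP genes that passed the test on counts had the opposite sign under any of the scalings tried. The split of calls over all genes did move with the scale, from 2234 higher and 1779 lower to 3589 higher and 858 lower in CD18wt Treg and from 2516 and 2120 to 3783 and 1201 in CD18Foxp3 Treg.

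**Figure D2:**
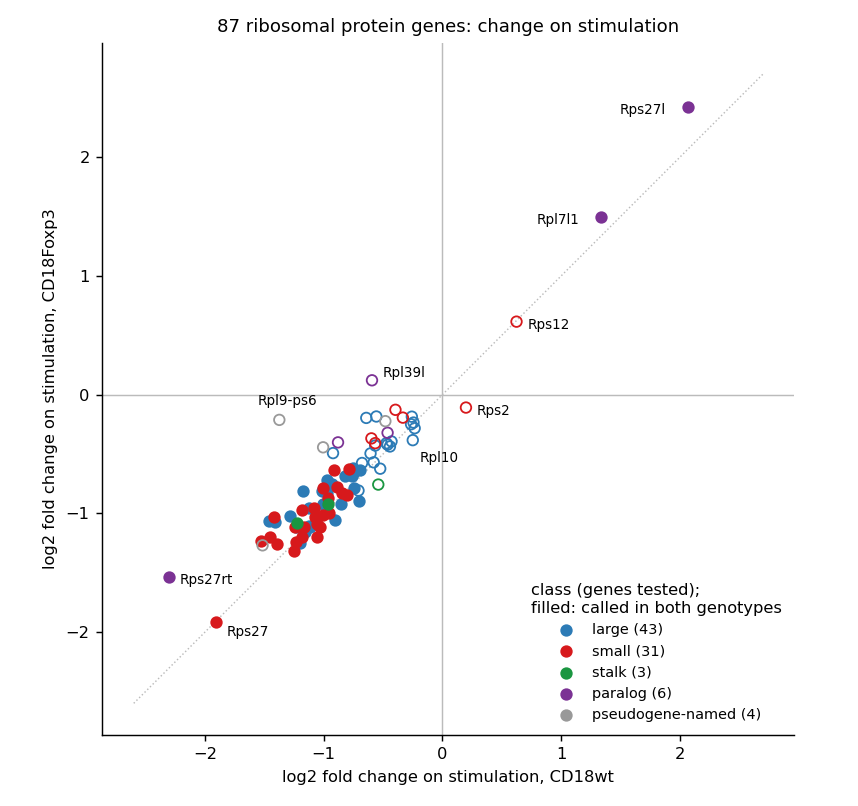
log2 fold change between stimulated and unstimulated libraries (edgeR, counts) of the 87 RP genes tested, in CD18wt Treg (horizontal axis) and CD18Foxp3 Treg (vertical axis), coloured by class; filled symbols passed the test in both genotypes, open symbols did not, and the dotted line marks equal change. The bulk of the large- and small-subunit genes sits between -1.5 and 0 on both axes, with Rps27l and Rpl7l1 alone as filled symbols at the upper right.

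The same 53 genes passed as lower in both genotypes, with log2 fold changes between -2.30 and -0.69 in CD18wt and between -1.91 and -0.62 in CD18Foxp3 Treg. The share of all genes that passed as lower in both was not counted. In the single comparisons it was 14.9% in CD18wt and 17.6% in CD18Foxp3 Treg. Rps27l and Rpl7l1 passed as higher in both. Rpl10a, Rpl22l1, Rpl36a and Rpl7 passed as lower in CD18wt Treg alone and Rpl27, Rpl8 and Rplp0 in CD18Foxp3 Treg alone. For none of these 7 did the interaction of genotype and stimulation pass, but it passed for 0% of all 12636 genes tested as well. As the 2 stimulation comparisons use separate libraries, they share no control samples.

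Among the 31 small-subunit genes, 25 were lower in each genotype and none was higher, with a median log2 fold change of -1.03 in CD18wt and -0.996 in CD18Foxp3 Treg. Rps27 (ENSMUSG00000090733), a zinc finger protein of the small subunit whose coding sequence is shown above, stood at 5612, 5830 and 5099 TPM in unstimulated CD18wt Treg and at 1943, 2039 and 1792 TPM after stimulation. In CD18Foxp3 Treg its level went from 6596, 6350 and 5444 TPM to 2623, 1758 and 1890 TPM. The groups were far apart in both genotypes. Its log2 fold change was -1.91 (SE 0.15, edgeR adjusted p = 7.87e-07) in CD18wt and -1.91 (SE 0.18, edgeR adjusted p = 2.7e-05) in CD18Foxp3 Treg, a fall of 3.76-fold and 3.77-fold. Only 0.60% of its reads were placed uniquely.

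Rps15a (ENSMUSG00000008683, chr7:118104372-118116188), whose reads were nearly all placed uniquely, fell from 822, 781 and 992 TPM to 379, 397 and 419 TPM in CD18wt Treg and from 873, 896 and 785 TPM to 566, 407 and 421 TPM in CD18Foxp3 Treg. Its log2 fold change was -1.53 (SE 0.16, edgeR adjusted p = 8.31e-06) and -1.23 (SE 0.16, edgeR adjusted p = 0.000153). No stimulated library reached an unstimulated one. Rps24, mutated in Diamond-Blackfan anaemia, fell by 1.45 and 1.20 on the log2 scale, and Rps29 by 1.42 and 1.03. Rps21 fell by 1.39 and 1.26 and Rps14 by 1.25 and 1.32, in the order CD18wt and CD18Foxp3.

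Rps6, the substrate of the S6 kinases downstream of mTORC1, was at 5021, 5130 and 6037 TPM in unstimulated and at 3954, 4007 and 3995 TPM in stimulated CD18wt Treg. In CD18Foxp3 Treg it went from 5298, 5470 and 5167 TPM to 3930, 3843 and 3774 TPM. The 3 stimulated libraries of each genotype were close together and well below the unstimulated ones, with a log2 fold change of -0.84 (SE 0.16, edgeR adjusted p = 0.000726) and -0.83 (SE 0.09, edgeR adjusted p = 7.56e-05). Rpsa, which also serves as a laminin-binding protein, fell by 0.80 and 0.85 on the log2 scale, Rps3a1 by 0.89 and 0.78, Rps15 by 1.24 and 1.11, and Rps4x, which lies on the X chromosome, by 0.79 and 0.63.

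Small-subunit genes that passed in neither genotype included Rps2, Rps12, Rps25 and Rps26. Rps2, which lines the mRNA entry of the small subunit, did not move with its subunit. It stood at 1067, 1210 and 1032 TPM in unstimulated and at 1753, 2080 and 1107 TPM in stimulated CD18wt Treg, and at 827, 645 and 857 TPM and then 649, 1172 and 970 TPM in CD18Foxp3 Treg. Its log2 fold change was 0.20 (SE 0.23, edgeR adjusted p = 0.502) and -0.11 (SE 0.19, edgeR adjusted p = 0.649). The sign depended on a library in each genotype: without CD18wt stimulated replicate 2 the first value was -0.11, and without CD18Foxp3 stimulated replicate 1 the other was 0.065, and it was also above 0 with library size as the only scaling (0.069) and on log2(TPM + 1) (0.23). The spread between the stimulated libraries was wide, from 1107 to 2080 TPM in CD18wt Treg.

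On counts, all 43 large-subunit genes had a negative log2 fold change in both genotypes, though on log2(TPM + 1) only 76 and 72 of the 87 RP genes tested did. Of the 43, 28 passed as lower in CD18wt and 27 in CD18Foxp3 Treg, and none as higher. The medians were -0.76 and -0.69. Rpl39 (ENSMUSG00000079641), a short protein at the exit tunnel, went from 2147, 2050 and 2788 TPM to 1078, 1180 and 1096 TPM in CD18wt Treg and from 2159, 2173 and 2030 TPM to 1624, 1137 and 1147 TPM in CD18Foxp3 Treg. Its log2 fold change was -1.46 (SE 0.18, edgeR adjusted p = 2.15e-05) and -1.06 (SE 0.16, edgeR adjusted p = 0.000449). The stimulated libraries were all lower, with CD18Foxp3 replicate 1 the highest of them. Rpl37a fell by 1.41 and 1.07 on the log2 scale and Rpl21 by 1.28 and 1.02. Rpl5 and Rpl11, which bind MDM2 when they are not built into ribosomes, fell by 0.75 and 0.79 and by 0.69 and 0.64.

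At the other end of the large subunit, the values were Rpl7a -0.23 (edgeR adjusted p = 0.202) and -0.28 (0.0248), Rpl29 -0.24 and -0.23, Rpl28 -0.26 and -0.19, Rpl15 -0.26 and -0.25, and Rpl10 -0.25 and -0.38. Rpl7a stood at 814, 791 and 904 TPM before and 901, 973 and 944 TPM after stimulation in CD18wt Treg, so that the groups overlapped in TPM by a narrow margin. On log2(TPM + 1) its change in CD18wt Treg was 0.17, the opposite sign. Rpl29 was likewise higher in TPM in all stimulated libraries of each genotype (902.7 to 940.0 against 763.6 to 872.8 TPM in CD18wt Treg), while its log2 fold change on counts was below 0. The directions of these small changes thus depend on the scale. Rpl7a and Rpl29 share 59-base words with 103 and 60 pseudogenes, though 99.9% of the reads of Rpl7a were placed uniquely, against 51.2% for Rpl29.

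All 3 stalk genes passed as lower in CD18Foxp3 Treg and 2 of them, Rplp1 and Rplp2, in CD18wt Treg. Rplp1 was at 13223, 14682 and 17464 TPM in the unstimulated CD18wt libraries and at 9631, 11187 and 9884 TPM in the stimulated ones, and its log2 fold change was -0.96 (SE 0.18, edgeR adjusted p = 0.000594) in CD18wt and -0.92 (SE 0.10, edgeR adjusted p = 6.83e-05) in CD18Foxp3 Treg. Rplp2 fell by 1.22 and 1.08. Rplp0, which anchors the stalk, had a log2 fold change of -0.54 (edgeR adjusted p = 0.0175) in CD18wt Treg, where the libraries overlapped (6387, 6975 and 7437 TPM against 5932, 6940 and 5958 TPM), and of -0.76 (edgeR adjusted p = 0.000196) in CD18Foxp3 Treg, where they did not (7330, 7590 and 7501 TPM against 5004, 5916 and 6180 TPM). Rplp0 is often used as a reference gene.

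Rps27l and Rpl7l1, the paralogs of Rps27 and Rpl7, were the 2 RP genes that passed as higher. Rps27l (ENSMUSG00000036781, chr9:66946086-66949516), a paralog of Rps27 known as a target of p53, was at 85.2, 83.5 and 81.8 TPM in unstimulated CD18wt Treg and at 437, 486 and 457 TPM after stimulation. In CD18Foxp3 Treg it went from 87.1, 86.5 and 122 TPM to 813, 586 and 630 TPM. The groups were separated by a wide gap in both genotypes, while Rps27 moved the other way. Its log2 fold change was 2.07 (SE 0.14, edgeR adjusted p = 2.45e-07) in CD18wt and 2.42 (SE 0.19, edgeR adjusted p = 9.33e-06) in CD18Foxp3 Treg, and it was the largest rise among the RP genes tested. As a share of the TPM of Rps27, Rps27rt and Rps27l together, Rps27l made up 1.36, 1.30 and 1.43% in unstimulated and 17.8, 18.5 and 18.3% in stimulated CD18wt Treg, and 1.22, 1.26 and 2.06% and then 22.1, 22.9 and 23.9% in CD18Foxp3 Treg.

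Rpl7l1 (ENSMUSG00000063888, chr17:46773907-46782672), a paralog of Rpl7, rose from 60.8, 73.7 and 58.0 TPM to 200, 226 and 213 TPM in CD18wt Treg and from 60.5, 59.8 and 59.8 TPM to 215, 230 and 210 TPM in CD18Foxp3 Treg. The stimulated libraries lay above every unstimulated one. The log2 fold change was 1.34 (SE 0.14, edgeR adjusted p = 6.66e-06) and 1.496 (SE 0.10, edgeR adjusted p = 4.94e-06). Rpl7 itself had -0.61 (edgeR adjusted p = 0.00472) and -0.49 (edgeR adjusted p = 0.00645, short of the fold threshold). Rpl7l1 made up 2.41 to 3.51% of the TPM of the pair in unstimulated and 8.69 to 10.99% in stimulated libraries.

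None of the other paralogs passed as higher. Rpl22 fell by 0.97 and 0.72 on the log2 scale, and its paralog Rpl22l1, which is known to be restrained by Rpl22, fell by 0.88 (edgeR adjusted p = 0.000664) in CD18wt Treg and had -0.40 (edgeR adjusted p = 0.0665) in CD18Foxp3 Treg. Rpl22l1 made up 27.7 to 30.8% of the TPM of its pair in unstimulated and 26.1 to 32.9% in stimulated CD18wt Treg, and the groups overlapped. In CD18Foxp3 Treg its share was 24.5, 25.9 and 28.3% unstimulated and 33.0, 28.8 and 29.5% stimulated, and the groups did not overlap. Rpl36al had -0.46 and -0.32 beside -0.92 and -0.49 for Rpl36a, with 31.4% and 44.1% of their reads placed uniquely. Rpl39l stayed between 1.25 and 5.51 TPM in all libraries, with a log2 fold change of -0.59 (SE 0.70) and 0.12 (SE 0.53). Rpl3 had -0.58 and -0.57, with an edgeR adjusted p of 0.00886 and 0.000627, just short of the fold threshold, while Rpl3l and Rpl10l had too few reads.

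**Figure D3:**
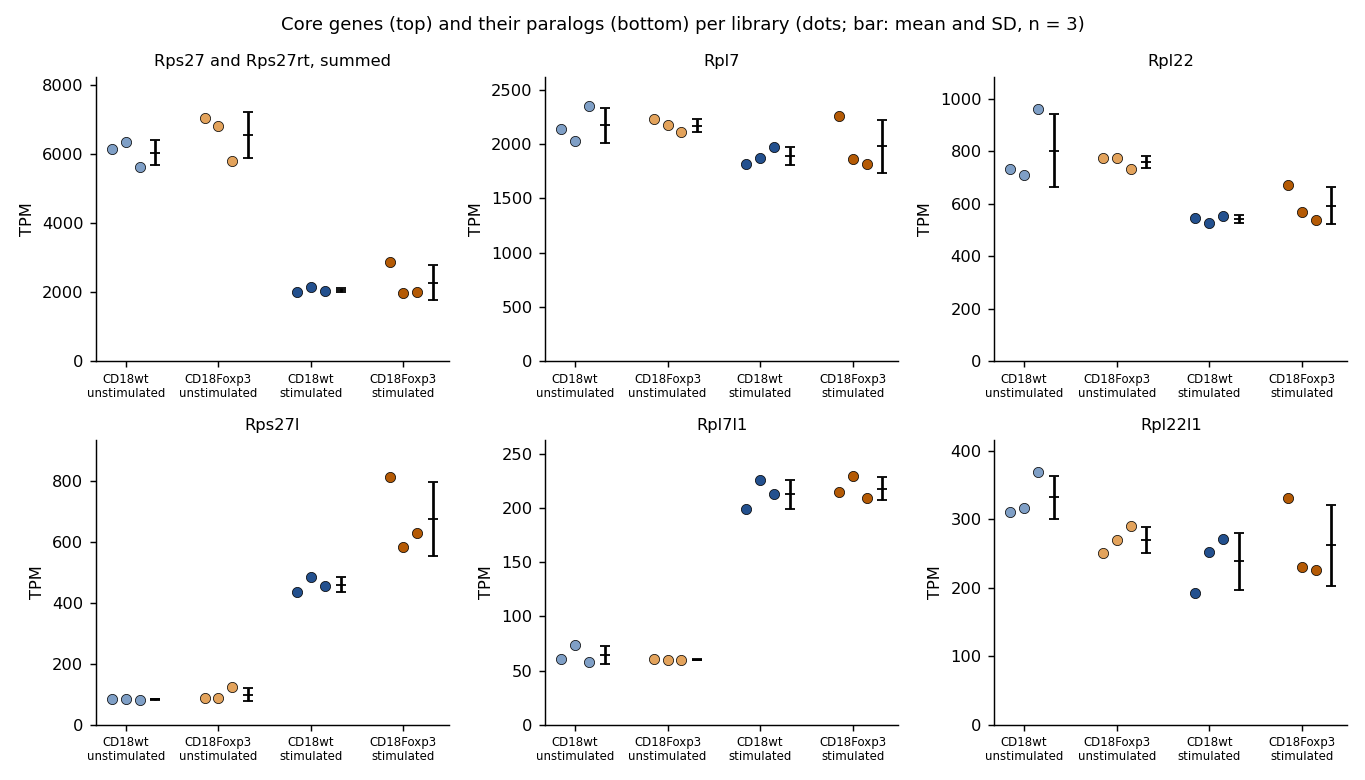
TPM (vertical axis, linear from 0) per library of Rps27 summed with Rps27rt, Rpl7 and Rpl22 in the upper row and of their paralogs Rps27l, Rpl7l1 and Rpl22l1 in the lower row, in the 4 groups on the horizontal axis; dots are libraries and bars are the mean and SD (n = 3). Rps27l and Rpl7l1 rise on stimulation, from at most 122 to at least 437 TPM and from at most 73.7 to at least 200 TPM, while Rps27 with Rps27rt and Rpl22 are lower.

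Near-identical copies limit what single genes of the family can show. Of the 92 genes, 65 had over 90% of their exon reads placed uniquely and 20 had under 50%. The lowest were Rps12-ps3 (0.03%), Rpl10-ps3 (0.10%), Rps27 (0.60%), Rpl10 (3.10%) and Rps27rt (4.87%). Of the 59-base words of Rps12-ps3 100% also occur in Rps12, of those of Rpl10-ps3 96.1% in Rpl10, of those of Rps27rt 90.8% in Rps27 and of those of Rpl9-ps6 87.7% in Rpl9. Rps12 stood at 16.3 to 36.2 TPM unstimulated and Rps12-ps3 at 5414 to 9409 TPM, so that most of the shared reads had been booked to the copy. Rps12 alone had a log2 fold change of 0.62 in both genotypes (edgeR adjusted p = 0.0559 and 0.0459), while the sum of Rps12 and Rps12-ps3 had -0.45 (SE 0.22, edgeR adjusted p = 0.115) and -0.20 (SE 0.09, edgeR adjusted p = 0.0849).

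The reads of other copies were summed in the same way. Rps27 with Rps27rt had a log2 fold change of -1.92 (SE 0.15) and -1.90 (SE 0.18), and Rpl9 with Rpl9-ps6 had -0.85 and -0.92. Rpl10 alone had -0.25 and Rpl10-ps3 -1.005 in CD18wt Treg, and their sum had -0.58 (SE 0.15, edgeR adjusted p = 0.0048). How shared reads were divided was not the same in all libraries: in CD18wt unstimulated replicate 3, Rpl10 was at 594 TPM beside 1178 and 1252 TPM in the other 2 libraries and Rpl10-ps3 at 3953 beside 2298 and 1905 TPM. Rps27rt alone had -2.30 (SE 0.42) and -1.53 (SE 0.24). Rpl13a-ps1, a low gene placed uniquely, was at 8.45 to 9.70 TPM before and 2.22 to 5.09 TPM after stimulation in CD18wt Treg, with log2 fold changes of -1.51 (edgeR adjusted p = 0.0486) and -1.27 (edgeR adjusted p = 0.0235). Among the genes whose reads were placed uniquely the fall was as large: 43 of the 61 tested genes with over 90% unique reads were lower in CD18wt and 44 in CD18Foxp3 Treg, with medians of -0.91 and -0.81.

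Relative to their exon reads, RP genes had more intron reads in stimulated cells. Per 1000 uniquely placed exon reads of RP genes there were 1.90, 1.61 and 0.50 uniquely placed intron reads in unstimulated and 3.45, 2.20 and 5.95 in stimulated CD18wt Treg. In CD18Foxp3 Treg there were 1.84, 1.61 and 1.62 and then 3.32, 3.78 and 3.30. Every stimulated library was above every unstimulated one. Over all genes the figure was 31.4 to 49.6 unstimulated and 35.2 to 60.0 stimulated, and the groups overlapped. The RP intron reads themselves numbered 3654, 3391 and 767 in unstimulated and 3059, 3145 and 7395 in stimulated CD18wt Treg. In CD18Foxp3 Treg they numbered 4189, 3073 and 3160 and then 5032, 4940 and 3976. These counts overlapped between the cultures in both genotypes. The RP exon reads, by which they are divided, were a smaller share of the library after stimulation. How far the ratio follows from that was not tested.

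By the start sequence, the 12 tested RP genes with a single RefSeq start and a C with a run of at least 5 C or T had a median log2 fold change of -0.98 in CD18wt and -0.91 in CD18Foxp3 Treg, and the 42 with a single start without it had -0.78 and -0.72. The ranges overlapped, from -2.30 to -0.26 and from -1.46 to 1.34 in CD18wt Treg, and the difference was not tested. Rpl15 (-0.26 and -0.25) and Rpl28 (-0.26 and -0.19) had a long run of C and T and a small change.

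The genes around the RP genes in the same pathway moved in several directions. Fau, outside the name rule, fell by 1.46 and 1.52 on the log2 scale (edgeR adjusted p = 1.69e-05 and 1.72e-05). Of 18 genes of translation factors and other proteins, many of them with TOP mRNAs, 5 were lower and 3 higher in CD18wt and 4 lower and 3 higher in CD18Foxp3 Treg, with medians of -0.35 and -0.32. Of all genes tested, 18.7% were higher and 14.9% lower in CD18wt and 20.9% higher and 17.6% lower in CD18Foxp3 Treg. Tpt1 fell most (-1.34 and -1.47), and Eef1a1, the elongation factor that brings aminoacyl-tRNA, fell by 0.83 and 0.79. Nap1l1 (1.03 and 1.28) and the nucleolar protein gene Npm1 (0.91 and 1.14) rose most.

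Genes that build ribosomes rose while the genes of the ribosome's own proteins fell. Of 26 ribosome biogenesis genes, 24 were higher in CD18wt and 22 in CD18Foxp3 Treg and none was lower, beside 18.7% and 20.9% of all genes higher, with median log2 fold changes of 1.43 and 1.58. Rrp12, an export factor of pre-ribosomes, had the largest value in CD18wt Treg (2.10) and Nhp2, of the H/ACA particles, in CD18Foxp3 Treg (2.06). Ubtf, a factor of RNA polymerase I, had the smallest in both, 0.21 (edgeR adjusted p = 0.219) and 0.06 (edgeR adjusted p = 0.801). Of 78 genes of the mitochondrial ribosome, 31 were higher and 2 lower in CD18wt and 33 higher and 1 lower in CD18Foxp3 Treg, beside 18.7% and 20.9% of all genes higher and 14.9% and 17.6% lower, with a median of 0.54 in both. Mrps22 rose most, by 1.74 and 1.69.

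Of 15 genes of mTORC1 and TOP mRNA control, 5 were higher and 1 lower in CD18wt and 4 higher and 1 lower in CD18Foxp3 Treg, beside 18.7% and 20.9% of all genes higher and 14.9% and 17.6% lower. Larp1, which binds TOP mRNAs, rose by 1.44 and 1.54 on the log2 scale and its relative Larp4 by 1.52 and 1.72. The lowest were Rps6ka3 in CD18wt Treg (-0.61, edgeR adjusted p = 0.000935) and Eif4ebp2 in CD18Foxp3 Treg (-0.64, edgeR adjusted p = 0.000435). Of Mdm2, Trp53 and Cdkn1a, which are linked to unassembled ribosomal proteins, Cdkn1a was higher in both genotypes (5.76 and 5.60), from a mean of 1.65 to 119 TPM in CD18wt Treg. Mdm2 had 0.52 (edgeR adjusted p = 0.0073) and 0.33 (edgeR adjusted p = 0.031), under the fold threshold.

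**Figure D4:**
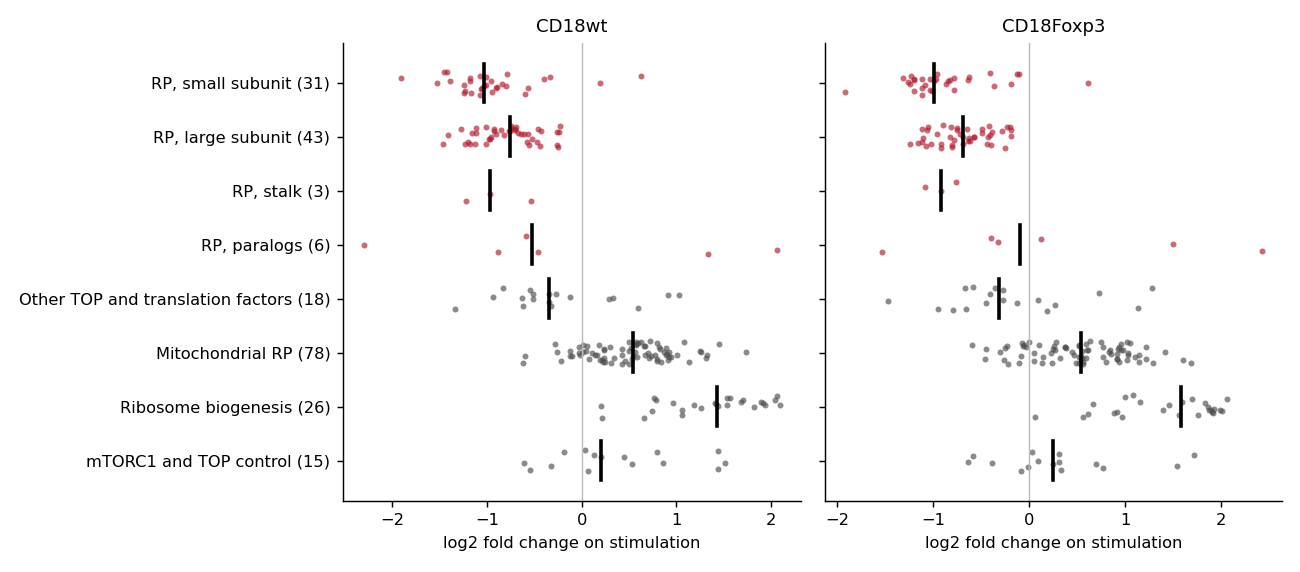
log2 fold change on stimulation (horizontal axis, edgeR, counts) of each tested gene in 4 classes of RP genes (red) and 4 related groups (grey), in CD18wt (left) and CD18Foxp3 Treg (right); the black bar is the median and the number of genes is in parentheses. Small- and large-subunit genes centre near -1.0 and -0.7, mitochondrial RP genes at 0.54 and ribosome biogenesis genes at 1.43 and 1.58.

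Other measures moved with stimulation too. The summed TPM of the 7 Treg markers was 1624 to 2107 in unstimulated and 2963 to 3794 in stimulated CD18wt Treg, and 1876 to 1927 and then 3877 to 4459 in CD18Foxp3 Treg. The 7 did not move together. Il2ra had the largest log2 fold change, 2.27 in CD18wt and 3.13 in CD18Foxp3 Treg. In each genotype 2 of the 7 were below 0, Cd4 (-1.15 and -1.25) and Cd3e (-0.87 and -0.92). The sum of 5 B cell markers, mostly Cd79b, was 22.6 to 30.8 TPM over the 6 unstimulated libraries. Over the 6 stimulated libraries it was 8.79 to 19.9 TPM. That of 5 myeloid markers was 141 to 206 and then 116 to 184 TPM, nearly all of it Cst3. That of 5 cytotoxic lymphocyte markers was 28.4 to 45.8 and then 56.7 to 338 TPM, with Gzmb the largest part of it after stimulation and Ncr1 at 0. That of 3 plasma cell markers was 58.7 to 71.9 and then 127 to 165 TPM, nearly all Xbp1, and that of 4 erythroid markers was at most 30.9 TPM. Mitochondrially encoded genes took 3.41 to 4.75% of exon reads unstimulated and 1.96 to 3.30% stimulated. The part of these in the fall of the RP genes was not tested.

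Between the genotypes, no RP gene passed. In unstimulated Treg, edgeR called 0 of 87 RP genes, beside 0.135% of 11829 genes tested, and 4 had an unadjusted p under 0.05. In stimulated Treg it called 0 of 87, beside 0% of 11930 genes, and again 4 had an unadjusted p under 0.05. DESeq2 and limma called 0 RP genes in both cultures as well. Over all genes, DESeq2 called 34 higher and 52 lower in unstimulated and 17 higher and 5 lower in stimulated CD18Foxp3 Treg. On log2(TPM + 1), limma called 0 higher and 1 lower unstimulated and 0 in either direction stimulated. With so few calls over all genes, the 0 of limma says little about the RP genes. The median log2 fold change, CD18Foxp3 against CD18wt, was -0.05 in unstimulated Treg, and 0.08 without CD18wt unstimulated replicate 3, and 0.04 in stimulated Treg. The quartiles were -0.16 and -0.016 in unstimulated and -0.034 and 0.13 in stimulated Treg, and the median SE of a gene was 0.12 and 0.15. Differences of this size could not be told from the spread with 3 libraries a group.

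Rps2 (ENSMUSG00000044533, chr17:24718116-24721929) came closest. In unstimulated Treg its 3 CD18Foxp3 libraries (827, 645 and 857 TPM) lay below its 3 CD18wt libraries (1067, 1210 and 1032 TPM), with a log2 fold change of -0.53 (SE 0.11, edgeR adjusted p = 0.063, unadjusted p = 0.00038). Over the alternatives that kept every library this value lay between -0.54 and -0.51, short of the fold threshold, while its adjusted p went from 5.47e-05 in edgeR with low genes kept to 0.905 in edgeR with all 12 libraries in 1 fit. In stimulated Treg it was lower too (649, 1172 and 970 TPM against 1753, 2080 and 1107 TPM), with overlapping libraries and a log2 fold change of -0.84 (SE 0.27, edgeR adjusted p = 0.813). When genes with low counts were kept in the fit, the edgeR adjusted p of this second value was 0.00104, so that its call depended on that filter. The 59-base words of Rps2 occur in 64 pseudogenes, though 98.1% of its reads were placed uniquely.

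Rpl13 was lower in CD18Foxp3 Treg in both cultures, with -0.33 (SE 0.11, edgeR adjusted p = 0.313) unstimulated, where the libraries did not overlap (2685, 2373 and 2503 TPM against 2838, 3090 and 3368 TPM), and -0.48 (SE 0.18, edgeR adjusted p = 0.916) stimulated. Rps27l was higher in both, with 0.21 (SE 0.14, edgeR adjusted p = 0.696) and 0.56 (SE 0.18, edgeR adjusted p = 0.800), and its libraries did not overlap in either culture. Rps27rt and Rpl22l1 had -0.33 each in unstimulated Treg (edgeR adjusted p = 0.293 and 0.262), and Rpl10-ps3 had 0.34 in stimulated Treg (edgeR adjusted p = 0.986). In all, 4 RP genes in unstimulated Treg had all CD18Foxp3 libraries below all CD18wt libraries and 1 had all above, beside 6.9% and 8.74% of all genes tested. In stimulated Treg the counts were 2 below and 3 above, beside 4.41% and 5.02%.

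None of the remaining extremes in the genotype comparisons passed. Rpl9-ps6, at 0 to 19.3 TPM, had -0.72 (SE 1.08) unstimulated and 0.47 (SE 1.18) stimulated, and Rpl39l had 0.65 (SE 0.58) in stimulated Treg. Rpl10 had 0.20 in unstimulated Treg, and -0.048 without CD18wt unstimulated replicate 3. Rps12 had -0.32 (SE 0.23) in stimulated Treg.

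**Figure D5:**
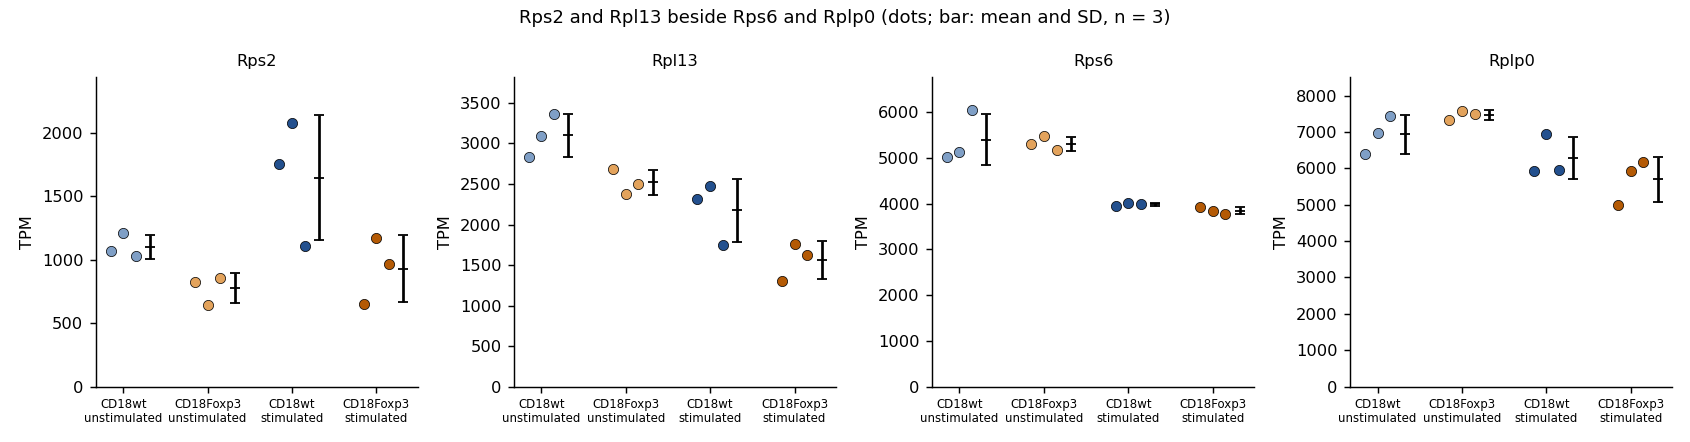
TPM per library (vertical axis, linear from 0) of Rps2, Rpl13, Rps6 and Rplp0 in the 4 groups on the horizontal axis; dots are libraries and bars are the mean and SD (n = 3). Rps2 lies at 645 to 857 TPM in unstimulated CD18Foxp3 against 1032 to 1210 TPM in unstimulated CD18wt Treg, while the genotypes lie close together for Rps6, at 5021 to 6037 and 5167 to 5470 TPM unstimulated and 3954 to 4007 and 3774 to 3930 TPM stimulated, CD18wt first.

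Whether the change on stimulation differed between the genotypes was tested as an interaction over all 12 libraries in edgeR: 0 of 87 RP genes passed, beside 0% of 12636 genes tested, and none had an unadjusted p under 0.05. DESeq2 and limma called 0 RP genes as well, but over all genes DESeq2 called only 1 and limma on log2(TPM + 1) only 1. The median interaction was 0.10 on the log2 scale, with a median SE of 0.21 per gene. Without CD18wt unstimulated replicate 3 the median was -0.03, so that its sign rested on that library. For Rps27l it was 0.35 (SE 0.22, edgeR adjusted p = 0.987) and for Rps2 -0.31 (SE 0.34, edgeR adjusted p = 0.987).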

How the data were processed

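Poly(A) RNA was sequenced in 59-base single reads after 15 PCR cycles. Per the labels and the study's methods, adapters were trimmed and the authors used CLC Genomics Workbench with default settings and the GRCm38 genome. The deposited counts are total and uniquely placed exon and intron reads of each gene, without normalization. The deposited TPM values, written with decimal commas, were computed by the authors.

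Total exon reads were tested in edgeR 4.0.16 (R 4.3.3) with filterByExpr (minimum count 10), TMM scaling, the robust quasi-likelihood F-test and Benjamini-Hochberg adjustment over all genes tested. Calls needed a 1.5-fold change and an adjusted p no higher than 0.01. The standard error is the size of the log2 fold change divided by the square root of F. The comparisons were stimulation in each genotype, genotype in each culture and their interaction. Scripts were tested on simulated data.

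The members and gene lists were chosen with earlier results of these data known. Named genes were the 5 highest and 5 lowest tested in TPM, the 5 largest rises and falls on stimulation, the 3 between genotypes, the paralog pairs, the stalk genes, Rpsa, Rps6 and the 5 with the lowest unique share. A gene that this rule also gave is not reported here. A few others were chosen after their values were seen (Rps24, Rps29, Rpl37a, Rpl21, Rpl5, Rpl11, Rpl28, Rpl29, Rpl15, Rps25, Rps26 and Rpl9). Alternatives were DESeq2 1.42.0, limma 3.58.1 on log2 TPM with a pseudocount of 1 or 0.1, other scalings and filters, uniquely placed reads, a replicate block, all 12 libraries in 1 fit and each library left out. The sum over near-identical genes was added after seeing the data. Start windows come from RefSeq (GRCm38.p6), coding sequences and 59-base words from the GENCODE transcripts of GRCm38.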

Additional observations from a re-analysis of the deposited data

How the results depend on the processing

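The counts, medians and summed levels moved under these alternatives. With limma on log2(TPM + 1) and log2(TPM + 0.1), 31 and 30 RP genes passed on stimulation in CD18wt and 34 and 34 in CD18Foxp3 Treg, against 59 and 58 on counts, and the medians were -0.49 and -0.49 in CD18wt and -0.42 and -0.43 in CD18Foxp3 Treg. With library size as the only scaling the medians were -0.71 and -0.61. With no filter on low counts, 1 RP gene, Rps2, passed between the stimulated genotypes. As a share of exon reads the RP genes took 14.9, 14.5, 9.31 and 9.31%, and as a share of uniquely placed exon reads 13.3, 12.9, 8.31 and 8.28%, in the order unstimulated CD18wt, unstimulated CD18Foxp3, stimulated CD18wt and stimulated CD18Foxp3. Leaving out each library in turn, 51 to 63 RP genes passed in CD18wt (median -1.02 to -0.71) and 51 to 64 in CD18Foxp3 Treg (median -0.85 to -0.74), 0 between genotypes (medians -0.13 to 0.08 unstimulated and -0.02 to 0.15 stimulated) and 0 for the interaction. The cause was not tested.

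Some values of single genes changed sign, none of them a value that passed. On stimulation these were Rps2 in CD18wt (-0.11 to 0.44 with a library left out), Rpl7a in CD18wt (0.17 and 0.17 with limma), Rpl39l in CD18Foxp3 (-0.26 to 0.56 with a library left out, -0.023 without stimulated replicate 1) and Rps2 in CD18Foxp3 Treg (0.069 with library size only, 0.23 and 0.23 with limma, -0.29 to 0.065 with a library left out). Between genotypes, with a library left out, they were Rpl10 in unstimulated Treg (-0.048 to 0.37), below 0 without CD18wt unstimulated replicate 3, Rps12 in stimulated Treg (-0.48 to 0.042) and Rpl9-ps6 in unstimulated (-1.25 to 1.24, and 0.27 and 1.22 with limma and 0.075 with the replicate block) and stimulated Treg (-0.36 to 1.30). With the replicate number as a block, 56 and 58 RP genes passed on stimulation and 0 between genotypes and for the interaction. Same-numbered libraries deviated together in only some pairs (correlations -0.09 to 0.10 in the CD18wt and 0.07 to 0.15 in the CD18Foxp3 stimulation comparison, -0.01 to 0.08 and -0.13 to -0.06 between genotypes). In CD18Foxp3 Treg the differently numbered pairs all correlated below 0 (-0.12 to -0.02). The values were centred within each group, so that same-numbered correlations above 0 push the others below 0. The latter are therefore no separate evidence on shared mice. Whether the numbers mark shared mice is not given in the sources used here, and the block was kept as an alternative. Of the named RP genes that passed, the block moved Rpl7 in CD18wt Treg (-0.60) out of the calls.

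Depth limits the low genes: 5 of the 92 could not be tested, and Rpl9-ps6 and Rpl39l had standard errors of 0.53 or more. With 3 libraries a group, an exact permutation test of 1 gene cannot go below p = 0.1.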
